A study of Danio rerio with 10 samples.

Results

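The respiratory chain genes described here were chosen by name. They comprise every gene whose zebrafish Ensembl name begins with nduf, sdha, sdhb, sdhc, sdhd, uqcr, cyc1, atp5 or cox followed by 4 to 8, together with the protein-coding genes whose name begins with mt-. The rule found 110 members among the 33737 genes in the files, of which 21939 have a symbol in the name table used here. The nuclear genome encodes 97 of them: 36 subunits and 7 assembly factors of complex I, 5 subunits and 4 assembly factors of complex II, 8 members of complex III, 18 of complex IV and 19 of complex V. The mitochondrial genome encodes the other 13. Another 12 genes with names of this kind were not among the 33737 genes counted, so they could not be analysed. More of these belong to complex IV than to any other complex, COX5A, NDUFA4, COX7C and cox7b among them. Genes whose name begins with ndufa4 were placed in complex IV, both here and among its 18 members. The rule uses names alone, though it was chosen with earlier results of these data known.

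The respiratory chain lies in the inner mitochondrial membrane. Complexes I and II pass electrons from NADH and succinate to coenzyme Q, complex III passes them on to cytochrome c, and complex IV hands them to oxygen; the proton gradient built on the way drives complex V, the ATP synthase. Complexes I, III, IV and V mix subunits encoded in the nucleus with subunits encoded on the small circular genome of the mitochondrion, which is read as long transcripts from both strands that are then cut into single RNAs, whereas every subunit of complex II is nuclear. In the testis, germ cells change their mitochondria and their fuel as they pass from spermatogonia to sperm, and mammals have versions of several complex IV subunits that are used mainly in male germ cells.

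Testis tissue of adult wild-type zebrafish was kept for 3 days in culture before its RNA was sequenced. The 5 Amh libraries came from tissue given 11KT and Amh, and the 5 control libraries from tissue given 11KT without Amh. 11KT, 11-ketotestosterone, is the main androgen of fish, and Amh is anti-Müllerian hormone, a secreted factor of the TGF-beta family; both groups received 11KT, so no library shows the tissue without androgen. The study set Amh against the growth factor Igf3 in the differentiation of spermatogonia, and the libraries compared here show tissue under 11KT with and without Amh. The series' design text calls the 5 libraries of each group biological replicates; the labels number them 1 to 5 in both groups, and what a number stands for (animal, culture or day) is not stated.

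Values are counts of reads per gene, expressed as CPM, which is reads scaled to a common library size corrected by the TMM method. Total counts were 10974579 to 15448069 in Amh libraries and 8455226 to 11934679 in control libraries, and in each number the depth of Amh over control was 1.20 to 1.30. Libraries with the same number resembled each other more than libraries of the same group, so differences are given both between the groups and within each number. Germ cell and Sertoli cell markers were present in both groups: DDX4, the germ cell helicase Vasa, had 889 ± 105 CPM in Amh and 932 ± 92.9 CPM in control libraries (SD, n = 5 each), and gsdf, a Sertoli cell factor, had 1259 ± 338 and 1011 ± 283 CPM. In whole tissue, fewer cells of a type and less RNA per cell cannot be told apart.

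No respiratory chain gene passed the test in the comparison of Amh with control. Of the 110 members, 108 had enough reads to be tested, all 13 mitochondrially encoded and 95 nuclear. The unpaired edgeR quasi-likelihood test called 0 of 108 at a Benjamini-Hochberg adjusted p under 0.05 and 0 at an unadjusted p under 0.05, where it called 0% and 0.675% of all 19420 genes tested. With the replicate number as a block the test called 0 members after adjustment (0.0206% of all genes). Before adjustment that blocked test gave p under 0.05 for 9 members, 8.33% of those tested, against 8.72% of all genes. DESeq2 likewise called 0 members after adjustment, unpaired or blocked, where it called 0% and 0.129% of all genes. Unadjusted, it gave p under 0.05 for 2 members unpaired (0.834% of all genes) and for 5 with the block (5.73% of all genes). In 0 members did the 5 Amh values and the 5 control values fail to overlap, as they did in 0.139% of all genes.

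Transcripts of the 13 mitochondrially encoded members differed between Amh and control in 1 replicate number far more than in the others. In number 1 all 13 were lower in the Amh library, with a median difference of -0.71 on the log2 scale. In numbers 2, 3, 4 and 5 the median difference was 0.02, 0.22, 0.21 and 0.11, and 9, 13, 13 and 10 of the 13 were higher in the Amh library. The median over all 19420 genes lay between -0.01 and 0.00 in every number.

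Summed over the 13 members, mitochondrially encoded transcripts came to 27843, 67807, 55652, 104280 and 48839 CPM in Amh libraries 1 to 5, against 45665, 68142, 47487, 94958 and 44784 CPM in control libraries 1 to 5. The groups overlapped widely. Number 4 was the highest and number 2 the next in both groups, and the Amh library of number 1 was below all other libraries. The mean was 60884 ± 28263 CPM in Amh and 60207 ± 21690 CPM in control libraries (SD, n = 5 each), and the highest of the 10 libraries held 3.75 times the level of the lowest. Within numbers, the Amh library had 0.610 times the control level in number 1 and 0.995, 1.17, 1.10 and 1.09 times the control level in numbers 2 to 5.

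The 95 nuclear members did not share that difference in number 1. Their summed level was 8327, 9929, 9707, 10406 and 8506 CPM in Amh libraries 1 to 5, against 8015, 10103, 9111, 10063 and 8646 CPM in control libraries 1 to 5. These sums also overlapped, and the highest was 1.30 times the lowest. The mean was 9375 ± 913 CPM in Amh and 9188 ± 905 CPM in control libraries (SD, n = 5 each). In number 1 the nuclear sum of the Amh library was 1.04 times that of the control library, and the median nuclear member differed by 0.05 (log2), with 56 of 95 higher in the Amh library. Medians in numbers 2 to 5 were -0.05, 0.07, 0.05 and -0.02, with 38, 69, 64 and 42 of 95 members higher in the Amh library.

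**Figure D1:**
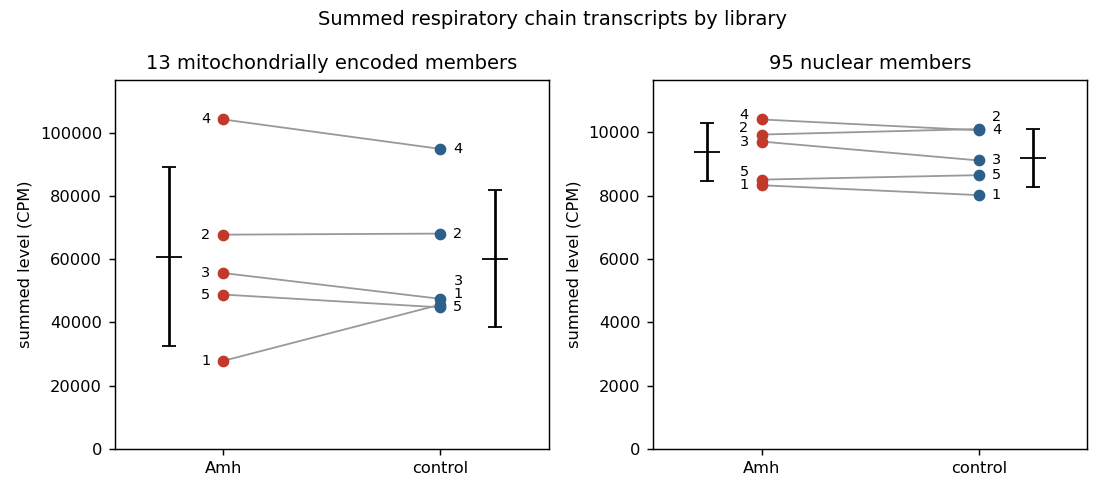
Summed level of the 13 mitochondrially encoded members (left) and of the 95 tested nuclear members (right), in CPM, in each Amh library (red) and control library (blue); digits are replicate numbers, lines join libraries of 1 number, and black marks with bars are the mean and SD of 5 libraries. The mitochondrial sum of number 1 is 27843 CPM in the Amh library, against 45665 CPM in the control library, while the lines of the nuclear sums are nearly level.

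The balance of nuclear to mitochondrially encoded transcripts followed the mitochondrial side. The log2 of the nuclear over the mitochondrially encoded sum was higher in the Amh library by 0.77 in number 1 and lower in the Amh library in the other numbers, with differences of -0.02, -0.14, -0.09 and -0.15 in numbers 2 to 5. Its mean over the 5 numbers was 0.08 with an SD of 0.39 (n = 5), smaller than its spread, and it was -0.10 over numbers 2 to 5 alone. This ratio does not depend on library scaling, since the same factor applies to both sums. Sums weigh members by their reads, and read counts were not corrected for transcript length.

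**Figure D2:**
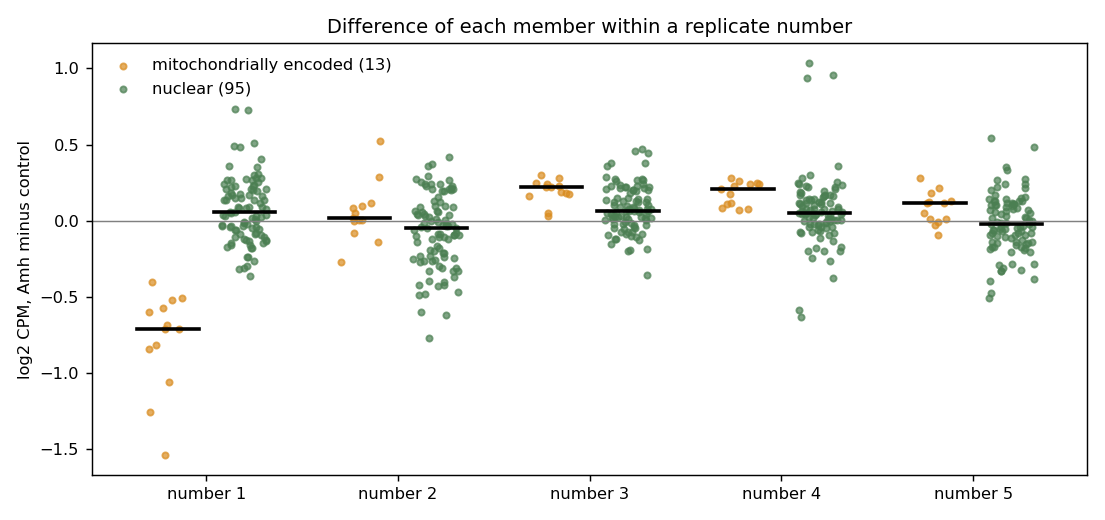
Difference in log2 CPM, Amh minus control, of each mitochondrially encoded (orange) and nuclear (green) member within each replicate number; each point is 1 gene and black lines are medians. In number 1 all 13 mitochondrially encoded members lie below 0, with a median of -0.71, and the nuclear median is 0.05.

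Among the complex I subunits made in the mitochondrion, the difference in number 1 was widest for mt-nd4l and MT-ND5. The ND genes encode the membrane arm of complex I, which moves protons. mt-nd4l (ENSDARG00000063916) had 78.0, 329.7, 272.7, 578.6 and 250.0 CPM in Amh libraries 1 to 5, against 227.3, 229.2, 267.3, 493.2 and 251.2 CPM in control libraries 1 to 5. Only the Amh library of number 1 stood below all 5 control libraries, at a log2 difference of -1.54 within its number; the other numbers differed by 0.52, 0.03, 0.23 and -0.01. MT-ND5 (ENSDARG00000063921) had 484, 1769, 1708, 3040 and 1223 CPM in Amh and 1155, 1447, 1529, 2576 and 1215 CPM in control libraries. It was again low in the Amh library of number 1 (-1.26), and each other Amh library was above the control library of its number. MT-ND1, MT-ND2 and MT-ND4 differed by -0.71, -0.69 and -0.71 in number 1, and MT-ND3 by -0.41, the smallest of the 13.

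MT-ND6 is the 1 protein-coding gene on the opposite strand of the vertebrate mitochondrial genome. It had 362, 982, 786, 1334 and 541 CPM in Amh and 538, 981, 693, 1257 and 577 CPM in control libraries, a difference of -0.57 in number 1 and of 0.00, 0.18, 0.09 and -0.09 in numbers 2 to 5. Without a statement of whether reads were counted by strand, reads of MT-ND6 cannot be told apart from any that came from the strand opposite to it. The genes mt-nd4l and MT-ND4 overlap at their ends, as do mt-atp8 and MT-ATP6, and the counting of reads that cover both is not given in the sources used here.

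The catalytic core of complex IV is encoded by MT-CO1, MT-CO2 and MT-CO3, of which the first holds the site where oxygen is reduced. MT-CO1 (ENSDARG00000063905) had 11004, 23923, 21090, 37830 and 18770 CPM in Amh libraries 1 to 5, against 19378, 24006, 17881, 35128 and 17124 CPM in control libraries 1 to 5. The Amh library of number 1 was the lowest of the 10 and both libraries of number 4 were the highest. Differences within numbers were -0.82 in number 1 and -0.005, 0.24, 0.11 and 0.13 in numbers 2 to 5. MT-CO2 and MT-CO3 differed by -0.51 and -0.52 in number 1 and by -0.14 to 0.30 and 0.05 to 0.22 in the others.

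Cytochrome b of complex III, encoded by MT-CYB (ENSDARG00000063924), had 2014, 5238, 4711, 9191 and 3970 CPM in Amh and 3615, 5168, 4028, 7961 and 3840 CPM in control libraries. Its difference was -0.84 in number 1 and 0.02, 0.23, 0.21 and 0.05 in the others. The ATP synthase subunits MT-ATP6 and mt-atp8, which belong to its membrane part, differed by -0.60 and -1.06 in number 1. In numbers 2 to 5 they ranged from -0.08 to 0.28 and from 0.05 to 0.28. MT-ATP6 averaged 5214 ± 2400 CPM in Amh and 4979 ± 1740 CPM in control libraries, and mt-atp8 averaged 633 ± 322 and 615 ± 184 CPM (SD, n = 5 each).

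**Figure D3:**
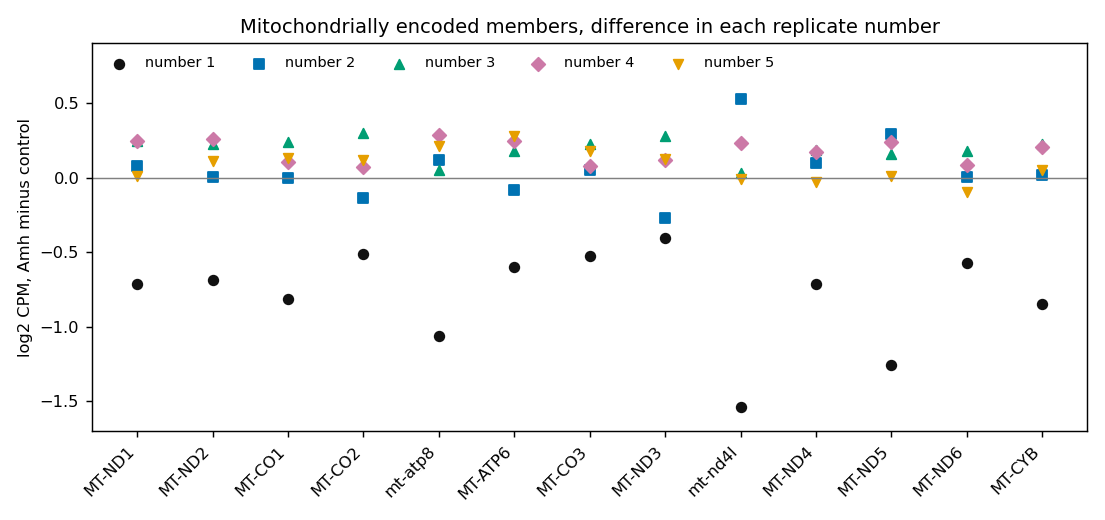
Difference in log2 CPM, Amh minus control, of each mitochondrially encoded member (x axis, along the mitochondrial genome) in each of the 5 replicate numbers (symbols). Number 1 runs from -1.54 for mt-nd4l to -0.41 for MT-ND3, and the other numbers lie between -0.27 and 0.52.

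Over all 5 numbers no mitochondrially encoded member came near the threshold. Unpaired log2 fold changes lay between -0.02 and 0.07 with standard errors of 0.323 to 0.404, and edgeR's adjusted p was 0.9999 for each. With the block, the widest estimate was -0.13 ± 0.193 (SE) for mt-nd4l, at an edgeR adjusted p of 0.890. The sign of the group depended on the fit and on number 1. The unpaired median of the 13 was 0.04 (9 above 0) and the blocked median -0.06 (2 above 0). Without number 1 the blocked median was 0.13 (13 above 0). Leaving out 1 library of the unpaired fit kept the other library of its number, so the groups no longer held the same numbers. Levels of these members followed the number, so such medians do not measure differences within numbers. The unpaired median was 0.23 without the Amh library of number 1 and 0.26 without the control library of number 4. It was -0.27 without the Amh library of number 4.

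Several measures of other cell types also differed between the libraries of number 1. The summed markers of red blood cells differed by -0.52 (log2; 46.8 CPM in Amh and 66.8 CPM in control), those of macrophages and leukocytes by -0.38 (285 CPM in Amh and 372 CPM in control), those of muscle by -0.20, those of spermatids by -0.18 and those of spermatocytes by -0.14. Leydig cell markers were higher in the Amh library by 0.31 (283 CPM in Amh and 228 CPM in control), spermatogonial markers by 0.11 and Sertoli cell markers by 0.08. Across all libraries these sums ranged from 46.8 to 117 CPM in Amh and 66.8 to 155 CPM in control for the 5 red cell markers tested, from 202 to 354 and 286 to 497 CPM for the 13 macrophage and leukocyte markers, and from 88.3 to 283 and 91.0 to 461 CPM for the 11 Leydig markers. The red cell and leukocyte sums were lower in the Amh library in numbers 2 to 5 too, where the mitochondrially encoded sum differed by -0.01 to 0.23. The summed spermatocyte markers were also lower in the Amh library in 5 of 5 numbers, with differences of -0.01 to -0.16 (log2). The summed Sertoli cell markers, gsdf included, were higher in 5 of 5, by 0.08 to 0.45, though single markers went both ways. At an unadjusted p under 0.05, blocked edgeR put 6 of 13 tested Sertoli genes higher and 2 lower. For the 18 spermatocyte genes tested these counts were 0 and 2, and of all genes 3.84% were higher and 4.88% lower. Leydig markers turned the other way outside number 1, with differences of -0.27, -0.04, -0.59 and -0.81 in numbers 2 to 5. Those of spermatids differed by -0.24 to 0.05, those of spermatogonia by -0.17 to 0.02 and those of muscle by -0.11 to 0.28 in numbers 2 to 5. At the same unadjusted blocked p, 0 Leydig genes were higher and 6 lower of 11 tested. For red cells these counts were 0 and 3 of 5, and for spermatids 0 and 3 of 17. They were 2 and 1 of 16 for spermatogonia, and 0 and 1 of 16 for muscle. Of the macrophage and leukocyte list, 2 genes had no read in any library. Blocked edgeR called 2 lower after adjustment, cd74a at -0.62 ± 0.0831 and mhc2dab at -0.78 ± 0.116 (log2, SE, adjusted p = 0.0296 and 0.0413). It called 0.0206% of all genes after adjustment. At an unadjusted p under 0.05 it put 8 of the 13 tested genes of this list lower and 1 higher. The part of any of these cells in the mitochondrial difference of number 1 was not tested.

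Genes that maintain and read the mitochondrial genome were given as a further list of 19 tested genes. Blocked edgeR called 0 of them and put 1, TFB1M, higher in Amh at an unadjusted p under 0.05. Of all genes, 8.72% had such a p, and 3.84% had it and were higher in Amh. Unpaired edgeR called 0 of the 19. TFAM, which packs mitochondrial DNA and starts its transcription, had 20.3, 38.5, 35.6, 37.6 and 24.9 CPM in Amh libraries, against 25.3, 43.3, 29.7, 34.9 and 27.5 CPM in control libraries. It was lower in the Amh library of number 1 by 0.31 (log2) and overall stood at -0.05 ± 0.0961 (blocked log2 fold change, SE). LRPPRC, which stabilises mitochondrial mRNAs in mammals, had 84.3 CPM in the Amh library of number 1 and 73.7 CPM in its control. The sum of the 19 genes was 489 CPM in each library of number 1.

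Nuclear members differed little between the groups. Their unpaired log2 fold changes had a median of 0.02, an interquartile range of -0.06 to 0.09 and extremes of -0.20 and 0.39, with 55 above 0 and 40 below. Leaving out 1 library, with the other library of its number kept, moved this median between -0.032 and 0.091. The lowest was without the control library of number 1 and the highest without the control library of number 2. The median was also below 0 without the Amh library of number 2 or 4 or the control library of number 5. Over all genes the median was -0.01 and the interquartile range -0.12 to 0.10. Higher in the Amh library in 5 of 5 numbers were 10 nuclear members, 9.26% of the 108 members and 4.65% of all genes. Lower in 5 of 5 were 2 nuclear members, 1.85% of members and 5.09% of all genes. Of the 9 members with an unadjusted blocked p under 0.05, 7 were higher in Amh (3.84% of all genes) and 2 lower (4.88% of all genes); complex V held 4 of them and complex IV 2. No adjusted p of these 9 fell below 0.422 in blocked edgeR.

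**Figure D4:**
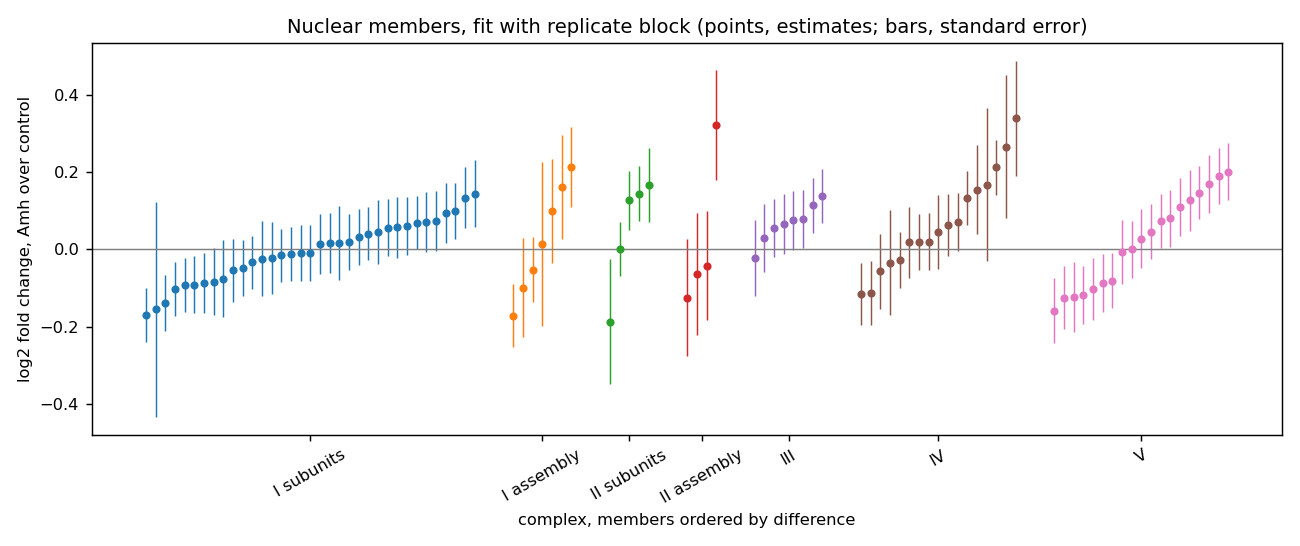
Log2 fold change, Amh over control, of the 95 tested nuclear members in the edgeR fit with the replicate block, grouped by complex and ordered by value within each; bars are standard errors. The estimates run from -0.19 for 1 of the SDHD genes to 0.34 for cox5aa.

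Complex I, the entry point for NADH, had 35 nuclear subunits tested, with a median unpaired log2 fold change of -0.01 and 17 above 0. NDUFB2 and NDUFB4, accessory subunits of the membrane arm, were the 2 members lower in the Amh library in every number. NDUFB2 (ENSDARG00000045490) had 94.7, 113.9, 151.5, 159.6 and 103.5 CPM in Amh libraries 1 to 5, against 97.9, 136.6, 159.4, 180.4 and 126.2 CPM in control libraries 1 to 5. The groups overlapped, the level followed the replicate number in both, and the blocked log2 fold change was -0.17 ± 0.0707 (SE; edgeR adjusted p = 0.527). NDUFB4 (ENSDARG00000019332) had 204, 203, 203, 213 and 168 CPM in Amh and 220, 235, 210, 214 and 211 CPM in control libraries, with a blocked value of -0.14 ± 0.0724 (SE; edgeR adjusted p = 0.618). The Amh library of number 5 was the low one, at a difference of -0.33 within its number.

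The accessory complex I subunit NDUFB6, named after its values were seen, pointed the other way by a similar small amount and was higher in Amh in 5 of 5 numbers. NDUFB6 averaged 39.1 ± 1.89 CPM in Amh and 35.6 ± 2.69 CPM in control libraries (SD, n = 5 each). Its edgeR adjusted p with the block was 0.672. The core subunit NDUFS8, also named after its values were seen, followed the replicate number least of all 108 members, with 19.1% of its variance between numbers.

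Of the 7 complex I assembly factors tested, which build the complex without staying in it, NDUFAF5 and NDUFAF6 had the smallest p in blocked edgeR. NDUFAF5 (ENSDARG00000061629) had 22.4, 25.3, 18.4, 24.8 and 21.8 CPM in Amh libraries, against 19.1, 21.8, 19.9, 19.3 and 17.1 CPM in control libraries. It was higher in 4 of 5 numbers, by 0.21 ± 0.103 overall (blocked log2 fold change, SE; edgeR adjusted p = 0.583). NDUFAF6 (ENSDARG00000053652) had 41.8, 44.97, 68.9, 42.4 and 49.3 CPM in Amh and 47.4, 43.9, 78.8, 45.2 and 65.0 CPM in control libraries. It was lower in 4 of 5 numbers, by -0.17 ± 0.0807 on the log2 scale (SE; edgeR adjusted p = 0.572), and both libraries of number 3 were high.

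Complex II, succinate dehydrogenase, links the citrate cycle to the chain. Its 5 tested subunits had a median unpaired log2 fold change of 0.13, the highest of the complexes, with 4 above 0, and 0 had an unadjusted blocked p under 0.05. SDHA (ENSDARG00000016721), the flavoprotein that oxidises succinate, had 167, 179.5, 147, 162 and 148 CPM in Amh libraries 1 to 5, against 144, 148, 149, 145 and 140 CPM in control libraries 1 to 5. The highest 3 Amh libraries were above the control range of 140 to 149 CPM. The blocked log2 fold change was 0.14 ± 0.0712 (SE; edgeR adjusted p = 0.598). SDHB, the iron-sulphur subunit, averaged 86.5 ± 10.5 CPM in Amh and 78.9 ± 6.30 CPM in control libraries, and the membrane anchor SDHC 109 ± 14.1 and 109 ± 15.03 CPM (SD, n = 5 each).

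The symbol SDHD, the other membrane anchor, was carried by 2 genes, with estimates of opposite sign. ENSDARG00000030139 had 44.85, 49.8, 50.2, 52.2 and 45.5 CPM in Amh and 36.9, 59.97, 36.85, 43.8 and 41.6 CPM in control libraries, higher in 4 of 5 numbers (blocked log2 fold change 0.17 ± 0.0955, SE; edgeR adjusted p = 0.659). ENSDARG00000055712 had 15.2, 12.7, 10.6, 13.7 and 11.3 CPM in Amh and 9.15, 16.9, 13.6, 17.8 and 15.8 CPM in control libraries. It was lower in numbers 2 to 5, by 0.36 to 0.48 on the log2 scale, and higher by 0.73 in number 1. Its blocked value was -0.19 ± 0.161 (SE), and -0.41 ± 0.134 without number 1 (edgeR adjusted p = 0.783 and 0.866). Reads shared by such copies may have been counted for either or for neither, and the same holds for the paired COX5B and COX6A1 genes and the genes of the c subunit of complex V.

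Among the 4 complex II assembly factors, SDHAF2 (ENSDARG00000062971), which attaches the flavin to SDHA, had 12.05, 26.8, 18.4, 11.6 and 16.7 CPM in Amh libraries, against 8.52, 20.03, 19.6, 5.91 and 16.9 CPM in control libraries. The wide differences were in numbers 1, 2 and 4, at 0.49, 0.42 and 0.96 on the log2 scale, with -0.09 and -0.02 in numbers 3 and 5. The blocked log2 fold change was 0.32 ± 0.143 (SE; edgeR adjusted p = 0.550).

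Complex III takes electrons from coenzyme Q to cytochrome c. Of its 8 tested nuclear members, 7 had an unpaired log2 fold change above 0, with a median of 0.07, and 0 had an unadjusted blocked p under 0.05. uqcrc2a (ENSDARG00000014794), a core protein of the matrix side, had 115.5, 126, 135, 123 and 98.5 CPM in Amh libraries 1 to 5, against 112, 105, 128, 108 and 90.9 CPM in control libraries 1 to 5. It was higher in the Amh library in each number, by 0.04 to 0.27 on the log2 scale, though the groups overlapped (blocked 0.14 ± 0.0700, SE; edgeR adjusted p = 0.610). The similarly named UQCRC2 (ENSDARG00000071691), named after its values were seen, was higher in only 3 of 5 numbers. It averaged 100 ± 4.01 CPM in Amh and 95.7 ± 10.3 CPM in control libraries (blocked 0.08 ± 0.0772, SE; edgeR adjusted p = 0.823). UQCRC1, the other core protein, averaged 118 ± 10.2 CPM in Amh and 109.5 ± 16.04 CPM in control libraries, and CYC1, the haem subunit that docks cytochrome c, 129 ± 13.7 and 122 ± 12.6 CPM (SD, n = 5 each).

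Complex IV, cytochrome c oxidase, had 17 nuclear members tested, with a median of 0.02 and 12 above 0. Its small subunit gene cox8a (ENSDARG00000095273) had the smallest p of all members in blocked edgeR, though not in blocked DESeq2, where ATP5F1A had the smallest adjusted p (0.462). cox8a had 81.6, 80.0, 71.1, 74.4 and 86.3 CPM in Amh libraries 1 to 5, against 67.7, 71.7, 65.4, 63.3 and 71.3 CPM in control libraries 1 to 5. The Amh library was higher in each number, by 0.12 to 0.27 on the log2 scale, and 1 Amh library lay within the control range. The blocked log2 fold change was 0.21 ± 0.0707 (SE; adjusted p = 0.422 in blocked edgeR and 0.522 in blocked DESeq2). The similarly named cox8b (ENSDARG00000097209), named after its values were seen, had an estimate of the opposite sign. It averaged 93.5 CPM in Amh and 99.8 CPM in control libraries. The Amh library was lower in numbers 1, 2 and 5 and higher in numbers 3 and 4 (blocked -0.12 ± 0.0799, SE; edgeR adjusted p = 0.712).

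cox5aa (ENSDARG00000088383), a subunit on the matrix side, varied the most among members over the 10 libraries. It had 9.12, 3.49, 18.5, 2.42 and 16.1 CPM in Amh libraries, against 7.53, 3.40, 13.5, 2.07 and 11.4 CPM in control libraries. Both libraries of numbers 2 and 4 were low and those of numbers 3 and 5 high, so that 97.6% of its variance followed the replicate number and the highest library was 8.95 times the lowest. Within numbers it was higher in Amh by 0.04 to 0.48 (blocked 0.34 ± 0.148, SE; edgeR adjusted p = 0.543). The unpaired standard error was 0.596, the widest of the nuclear members.

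The paired isoforms of the COX4 subunit, which in mammals differ in their use under low oxygen, showed similar small differences. COX4I1 averaged 219 ± 25.8 CPM in Amh and 210 ± 40.1 CPM in control libraries, and COX4I2, the isoform raised by low oxygen in mammals, 15.2 ± 2.15 and 13.8 ± 2.96 CPM (SD, n = 5 each). Their blocked log2 fold changes were 0.07 ± 0.0755 and 0.15 ± 0.115 (SE; edgeR adjusted p = 0.827 and 0.737). cox6b2, whose mammalian counterpart is used in testis, had 186, 315, 384, 324 and 237 CPM in Amh and 199, 371, 366, 298 and 236 CPM in control libraries. It was lowest in number 1 and next lowest in number 5 in both groups, at a blocked value of -0.03 ± 0.0737 (SE).

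Complex V, which makes ATP, had 19 nuclear members tested, with a median of 0.04 and 11 above 0. Its catalytic head is built of alpha and beta subunits around a central stalk. ATP5F1A (ENSDARG00000010149), the alpha subunit, had 604, 617, 543, 541 and 597.5 CPM in Amh libraries 1 to 5, against 510.5, 504, 451, 523 and 558 CPM in control libraries 1 to 5. The Amh library was higher in each number, by 0.05 to 0.29 on the log2 scale, and 2 Amh libraries lay within the control range (blocked 0.19 ± 0.0717, SE; edgeR adjusted p = 0.475). The beta subunit ATP5F1B averaged 508 ± 53.8 CPM in Amh and 458 ± 45.2 CPM in control libraries, and ATP5F1D of the central stalk 73.7 ± 13.1 and 65.9 ± 15.2 CPM (SD, n = 5 each). Both were higher in 5 of 5 numbers and were named after their values were seen, with blocked values of 0.15 ± 0.0689 and 0.17 ± 0.0751 (SE; edgeR adjusted p = 0.572 and 0.550).

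ATP5F1C of the central stalk, named after its values were seen, was higher in Amh in 4 of 5 numbers (blocked 0.11 ± 0.0750, SE; edgeR adjusted p = 0.707). Of the measured genes of the head and central stalk, a grouping made after the values were seen, only atp5f1e had a blocked estimate below 0. Over all 19 tested nuclear members of complex V, 10 blocked estimates were above 0 and 9 below. atp5f1e, another subunit of the central stalk named after its values were seen, averaged 83.0 ± 11.9 CPM in Amh and 89.9 ± 11.7 CPM in control libraries and was lower in 4 of 5 numbers (blocked -0.12 ± 0.0755, SE; edgeR adjusted p = 0.694). atp5mc1 (ENSDARG00000056008), a gene of the rotating c ring, had 92.6, 97.2, 89.9, 105 and 106 CPM in Amh libraries, against 76.7, 98.7, 78.1, 86.3 and 88.5 CPM in control libraries. It was higher by 0.20 to 0.28 on the log2 scale in 4 numbers and differed by -0.02 in number 2 (blocked 0.20 ± 0.0737, SE; edgeR adjusted p = 0.458). Without number 2, its blocked adjusted p of 0.0575 was the lowest that any of the 35 members named by rule reached in any alternative. Number 2 was the 1 number in which this gene was not higher, and leaving out such a number tends to lower the p.

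The inhibitors of the ATP synthase, which stop it from running backwards when the proton gradient fails, were measured as atp5if1a and atp5if1b. atp5if1a averaged 65.95 ± 18.3 CPM in Amh and 63.9 ± 13.5 CPM in control libraries (SD, n = 5 each; blocked 0.03 ± 0.0764, SE). atp5if1b had 72.8, 108, 110, 152 and 63.7 CPM in Amh and 90.5, 126, 106, 128 and 83.0 CPM in control libraries. It was lower in Amh in numbers 1, 2 and 5 and higher in numbers 3 and 4 (blocked -0.12 ± 0.0901, SE; edgeR adjusted p = 0.728).

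Members also differed in how much they varied over the 10 libraries, whatever the group. The highest library exceeded the lowest by a median of 3.84 times for the 13 mitochondrially encoded members, with a range of 3.15 to 7.42. For the 95 nuclear members the median was 1.60 times, and over all genes it was 2.23 times. All genes were not matched to the members by level, and counting error in genes with few reads widens this ratio and the standard errors. ATP5MC3, a c ring gene named after its values were seen, was the steadiest member at 1.15 times, with 314 ± 17.3 CPM in Amh and 314 ± 17.7 CPM in control libraries. The replicate number accounted for a median of 90.3% of the variance of mitochondrially encoded members, 85.2% of nuclear members and 77.2% of all genes, and the group for 0.26%, 3.08% and 2.86%. Accordingly, the median unpaired standard error was 0.342 for mitochondrially encoded members, 0.151 for nuclear members and 0.239 for all genes, and with the block it was 0.113, 0.0780 and 0.133.

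**Figure D5:**
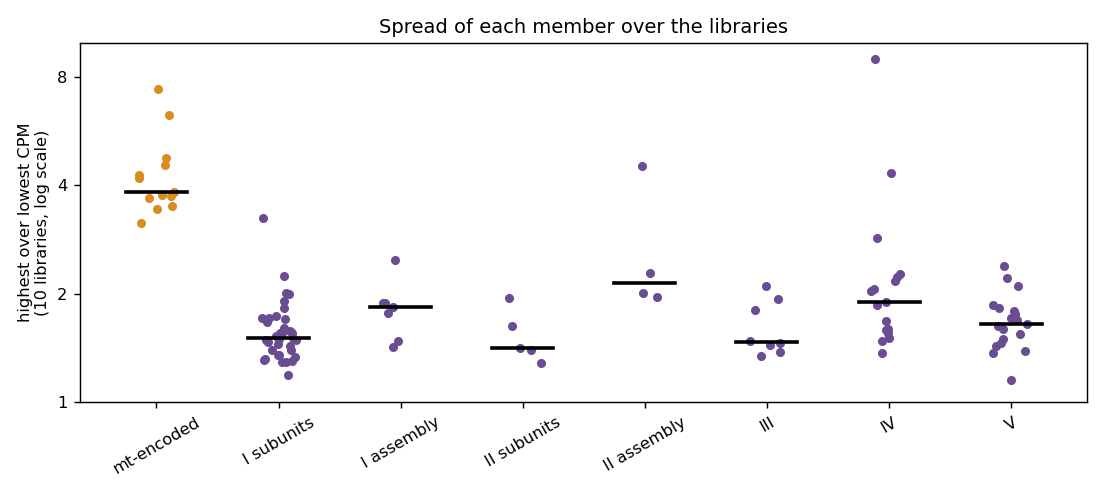
Ratio of the highest to the lowest CPM over the 10 libraries (log scale) for each tested member, by class; lines are class medians. Mitochondrially encoded members lie between 3.15 and 7.42, and the highest nuclear member is cox5aa at 8.95.

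The nuclear members with the lowest counts differed in their patterns. ndufa9b, a relative of the complex I subunit gene NDUFA9 that fell below the filter, had 0, 16, 0, 10 and 1 reads in Amh libraries 1 to 5, against 0, 9, 0, 4 and 0 reads in control libraries 1 to 5. Its reads thus came from numbers 2 and 4, the numbers in which cox5aa was low, except for 1 read in number 5. ndufa4l2b, the other untested member, had 0 reads in all libraries; a count of 0 leaves room for up to 3 reads, or 0.180 to 0.351 CPM by library, for counting error only. cox4i1l, named after its values were seen, had 4.56, 7.36, 12.8, 13.5 and 3.73 CPM in Amh and 3.41, 9.72, 14.8, 6.50 and 3.74 CPM in control libraries, so that its log2 difference was 1.04 in number 4 and between -0.39 and 0.40 elsewhere.

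Of the pathways around the chain, none of the further lists held a gene called by unpaired or blocked edgeR after adjustment over all genes. The count given for each is of genes with an unadjusted blocked edgeR p under 0.05. Of all genes, 8.72% had such a p, 3.84% higher and 4.88% lower in Amh. Single genes of these lists were named after their values were seen. Cytochrome c and coenzyme Q synthesis had 0 higher and 1 lower (COQ2) of 11 tested genes, and cycsb, a cytochrome c gene, averaged 217 ± 17.3 CPM in Amh and 213 ± 39.0 CPM in control libraries (SD, n = 5 each). Assembly factors outside the name rule had 4 higher and 2 lower of 33. The 4 higher were SURF1, COX15 and SCO1 of complex IV and uqcc3 of complex III, and the 2 lower are not named here. COX15, which makes the haem of complex IV, averaged 34.9 ± 4.37 CPM in Amh and 28.2 ± 5.65 CPM in control libraries (blocked 0.31 ± 0.0969, SE; edgeR adjusted p = 0.376).

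The citrate cycle had 3 higher and 0 lower of 17 tested genes, among them MDH2 and DLAT. A list of outer membrane proteins and carriers, which also held the prohibitins of the inner membrane, had 3 higher and 0 lower of 31: TOMM70, SLC25A3 and PHB2. PHB2, a prohibitin, averaged 66.8 ± 4.78 CPM in Amh and 53.7 ± 5.56 CPM in control libraries (blocked 0.31 ± 0.0796, SE; edgeR adjusted p = 0.297). The hypoxia response had 3 higher and 0 lower of 25, among them HIF1A at 0.25 ± 0.0748 (SE, edgeR adjusted p = 0.371). Regulators of mitochondrial biogenesis had 0 of 11. PPARGC1A and esrrgb, also on the list of regulators, fell below the low-count filter and are not among the 11. Glycolysis, the cytosolic route to ATP, had 6 higher and 0 lower of 19, with ALDOA at 231 ± 52.7 CPM in Amh and 172 ± 38.3 CPM in control libraries (blocked 0.42 ± 0.0806, SE; edgeR adjusted p = 0.176). ALDOA, an aldolase, was also the 1 gene of these lists that blocked DESeq2 called (adjusted p = 0.00446). The median unpaired log2 fold change was 0.10 for glycolysis, -0.05 for the hypoxia response and 0.03 to 0.05 for the other 6 lists, beside -0.01 over all genes.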

How the data were processed

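RNA of 5 Amh and 5 control libraries was isolated with a miRNeasy kit and made into libraries with an Illumina TruSeq kit, per the labels. The deposited values are raw read counts per Ensembl gene, with no normalization. The tools in the submitters' processing notes are TopHat2 2.0.5, HTSeq, SAMtools 0.1.18, DESeq and FastQC 0.10.1, with the build Zv9 and no roles. Not given in the sources used here are the annotation, how reads were counted, and strand.

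Genes were filtered with filterByExpr (19420 kept) and scaled by TMM. Amh was compared with control by edgeR 4.0.16 (quasi-likelihood F test, group only) in R 4.3.3, with Benjamini-Hochberg adjustment over all genes and a threshold of 0.05; DESeq2 1.42.0 and a replicate block were alternatives. Standard errors are |log2 fold change| over the square root of F, and a prior count of 2 entered log2 levels.

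Deviations from group means correlated at 0.490 to 0.784 between libraries of 1 number and at -0.338 to 0.130 otherwise, so the numbers were taken to pair libraries. No libraries were copies (chi-square over its degrees of freedom was 4.33 or more for libraries of 1 number and 17.4 or more for those of 1 group). P-values of unpaired fits rest on the spread between libraries as deposited, and those of blocked fits on the spread left within numbers.

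Named genes are all mitochondrially encoded members, 9 chosen symbols, and in each nuclear class the highest and the 2 with the smallest blocked p. Any other gene named in the text was named after its values were seen. Members and lists were chosen with earlier results of these data known. A search of promoters for motifs was not run, and no sequences or coordinates are given, for want of a genome of this build. Values of some single genes are not reported here.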

Additional observations from a re-analysis of the deposited data

Results flagged for a closer look

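In groups of 5 values, a value was marked when its gap to the nearest other exceeded 0.71 of the range. This held in 17 of 114 groups examined, and chance alone marks about 1 in 20; the groups are not independent, since the mitochondrially encoded genes move together.

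Most marks were differences between the Amh and the control library of number 1, each far from those of the other numbers. They comprise the summed mitochondrially encoded level at -0.71 (log2) and the ratio of nuclear to mitochondrially encoded sums at 0.77. The mitochondrially encoded members marked in the same way were MT-CO1 at -0.82, MT-CO3 at -0.52, MT-CYB at -0.84, MT-ND1 at -0.71, MT-ND2 at -0.69, MT-ND4 at -0.71, MT-ND5 at -1.26, mt-atp8 at -1.06 and mt-nd4l at -1.54. The SDHD gene ENSDARG00000055712 differed by 0.73 in number 1, where the other numbers lay between -0.48 and -0.36.

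atp5mc1 differed by -0.023 in number 2, where the other numbers lay between 0.20 and 0.28. Among levels, the control library of number 4 stood above the other control libraries for MT-ND5 (2576 CPM) and mt-nd4l (493.2 CPM). The Amh library of number 3 stood above the others for NDUFAF6 (68.9 CPM), and the Amh library of number 5 stood below them for NDUFB4 (168 CPM).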

How the results depend on the processing

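Unpaired edgeR called 0 of 19420 genes. The replicate block moved this to 4 (2 higher, 2 lower), RLE scaling with the block to 3, no low-count filter with the block to 113, and DESeq2 with the block to 25; leaving out 1 replicate number under the block gave 0 to 229, and leaving out 1 library unpaired gave 0 each time. Respiratory chain members stayed at 0 calls in every alternative run, the block included. Over 35 named members and 23 alternatives, 1 of 805 values moved by more than its standard error. It was the SDHD gene ENSDARG00000055712 under the block without number 1. Unpaired standard errors of the mitochondrially encoded members were 0.323 to 0.404, against a median of 0.113 with the block. The count does not show that these members were stable, since without number 1 their blocked median changed sign.

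The nuclear median of 0.02 ranged from -0.032 to 0.091 when 1 library was left out, the highest without the control library of number 2; the cause was not tested. The mitochondrially encoded median of 0.04 ranged from -0.27 to 0.26 when 1 library was left out, and was -0.06 with the block. The ratio of nuclear to mitochondrially encoded sums, 0.08, ranged from -0.13 (without the Amh library of number 1) to 0.26 (without the Amh library of number 4). For all of these ranges the other library of the number stayed in, so the groups no longer held the same numbers. With the block, leaving out each number was an alternative added after seeing the data for this ratio and gave -0.10 to 0.13. The depth limits members under a few CPM, and 5 libraries a group limit differences of the size seen here.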
